A study of Rattus norvegicus with 9 samples.

Results

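Transcript levels of 10 macrophage marker genes were followed in cultured rat cells, as a check for immune cells in each culture. The genes are Cd68, Cd14, Csf1r, Aif1, Ptprc, Itgam, Cd163, Tyrobp, Laptm5 and Lyz2, and they were chosen as the features of the deposited array table whose platform annotation gives only that gene symbol. All 10 were measured, each by 1 feature, among 14506 genes tested. The 9 Affymetrix Rat Gene 1.0 ST arrays hold 3 groups of 3 samples, called independent in the series description, from adult Sprague Dawley rats, with no agent or allele named in the labels. The groups are Schwann cells derived from dorsal trunk skin precursors (SKP-derived Schwann cells), Schwann cells of the sciatic nerve, and the skin-derived precursors (SKPs) themselves. SKPs were grown as spheres from digested skin and harvested after passaging, while the Schwann cells of both kinds, from plated SKPs or from digested nerve, were passaged in Schwann cell medium and harvested at confluence. The labels used here describe no step that removes immune cells, and they give neither sex nor pooling of animals; their tissue field reads dermis for all 9 samples, nerve cultures included. The 3 SKP arrays are a reanalysis of earlier samples, per the labels, so a batch of these arrays and the SKP state cannot be told apart.

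Macrophages are phagocytes of the myeloid lineage that reside in most tissues, skin and peripheral nerve included, and a digest of either tissue releases them with the other cells. They depend on the receptor tyrosine kinase Csf1r, which binds the growth factors Csf1 and Il34, and the transcription factor PU.1, encoded by Spi1, drives many of their genes. They are known for engulfing debris, in injured nerve that of myelin, and for a large lysosomal compartment. Several of their markers are not exclusive: Cd68 and Cd14 are also transcribed in some stromal cells.

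The promoters of 4 members are shown because Lyz2, Ptprc and Cd68 gave the widest spread among the SKP cultures of the 10 members, and Cd14 was above every Schwann cell array in all 3 of them. They come from RefSeq (build GRCr8) and run from 250 bases before to 50 bases after the start site used there, 5′ to 3′ on the strand of the gene. Lyz2 lies at chr7:54797962-54798261 (minus strand), Ptprc at chr13:52259697-52259996 (minus), Cd68 at chr10:54882392-54882691 (minus) and Cd14 at chr18:28611109-28611408 (minus). Capitals mark GAGGAA, the core letters of the PU.1 motif, on either strand (TTCCTC where it lies on the other strand).
Lyz2: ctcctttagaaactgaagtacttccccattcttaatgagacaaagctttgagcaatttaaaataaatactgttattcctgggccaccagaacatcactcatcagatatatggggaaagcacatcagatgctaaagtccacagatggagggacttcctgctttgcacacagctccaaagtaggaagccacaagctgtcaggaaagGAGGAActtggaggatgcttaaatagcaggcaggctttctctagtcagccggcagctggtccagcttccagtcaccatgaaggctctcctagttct
Ptprc: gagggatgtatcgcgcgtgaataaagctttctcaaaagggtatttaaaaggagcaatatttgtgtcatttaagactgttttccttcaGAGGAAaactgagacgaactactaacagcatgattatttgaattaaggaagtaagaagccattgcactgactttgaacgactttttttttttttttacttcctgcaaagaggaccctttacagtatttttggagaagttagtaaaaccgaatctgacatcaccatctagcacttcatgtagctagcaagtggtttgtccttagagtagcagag
Cd68: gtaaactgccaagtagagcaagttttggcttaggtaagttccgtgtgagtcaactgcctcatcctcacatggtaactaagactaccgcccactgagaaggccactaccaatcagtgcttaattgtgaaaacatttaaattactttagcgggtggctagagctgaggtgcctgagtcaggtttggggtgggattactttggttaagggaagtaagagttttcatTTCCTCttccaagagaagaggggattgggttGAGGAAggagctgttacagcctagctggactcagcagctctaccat
Cd14: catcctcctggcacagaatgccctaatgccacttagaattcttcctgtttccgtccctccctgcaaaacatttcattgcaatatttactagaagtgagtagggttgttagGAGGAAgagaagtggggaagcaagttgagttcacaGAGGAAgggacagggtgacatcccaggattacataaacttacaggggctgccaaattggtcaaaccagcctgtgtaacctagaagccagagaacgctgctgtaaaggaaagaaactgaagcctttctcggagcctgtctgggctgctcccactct
RefSeq promoters were found for 8 of the 10 members, and 7 of these 8 held GAGGAA on either strand, against 27.6% of 33469 rat promoters of the same length. The longer form GAGGAAGT, which contains it, was in 0 of the 8 and in 2.42% of all. Cd163 was the member without a match. A match of letters is a description of the sequence and not a binding site.

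The values are log2 expression values deposited by the authors, and the nerve arrays had higher medians. Array medians were 6.33 to 6.44 in SKP-derived Schwann cells, 6.82 to 6.87 in nerve Schwann cells and 6.20 to 6.27 in SKPs. The median gene difference was -0.45 for SKP-derived minus nerve Schwann cells and 0.46 for nerve Schwann cells minus SKPs. Differences are therefore given as deposited and after cyclic loess, a scaling that brought these medians to -0.02 and -0.03. The offset was not the same at all levels. Among genes above the median level, the same 2 medians were -0.28 and 0.20 as deposited. The nerve arrays also shared exact values: 4001 of 29214 features (13.7%) had the same value on at least 2 nerve arrays, against 52 on SKP-derived Schwann cell arrays and 34 on SKP arrays. Among these were the nerve values of 5 members, Aif1, Csf1r, Laptm5, Ptprc and Tyrobp, whose spread in nerve cells is then no full measure of the variation between cultures. The labelled cell types matched their markers. The 7 measured Schwann cell markers averaged 9.87 to 10.83 on SKP-derived and 11.02 to 11.03 on nerve Schwann cell arrays after cyclic loess, against 5.48 to 5.78 on SKP arrays, and the 10 dermal mesenchyme markers averaged 8.15 to 10.42 and 8.21 to 9.68, against 10.56 to 12.15 on SKP arrays. No detection calls were used, so no gene is called absent. In RNA of whole cultures, fewer cells of a type and less RNA per cell cannot be told apart.

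SKP array 1 stood apart from the other arrays on the macrophage markers. After cyclic loess it was the highest of the 3 SKP arrays for 9 of 10 members, all but Cd163, while it was the highest for 35.2% of all genes. It exceeded all 6 Schwann cell arrays for 10 of 10 members, and by at least 1 log2 unit for 9. SKP array 2 exceeded them for 9 members, by at least 1 unit for 3 (Cd14, Cd68 and Lyz2), and SKP array 3 for 3 members, by at least 1 unit for 1 (Cd14). The share of all genes above all 6 Schwann cell arrays was not computed, so these counts have no background beside them. The mean over the 10 members was 5.31 to 5.48 on SKP-derived Schwann cell arrays, 5.50 to 5.61 on nerve Schwann cell arrays, and 8.35, 6.53 and 5.84 on SKP arrays 1, 2 and 3. Each comparison with SKPs is therefore given with and without SKP array 1. That array was singled out by the values of these same members. The fits without it thus describe how far results rest on it, and their p-values are not independent of that choice.

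**Figure D1:**
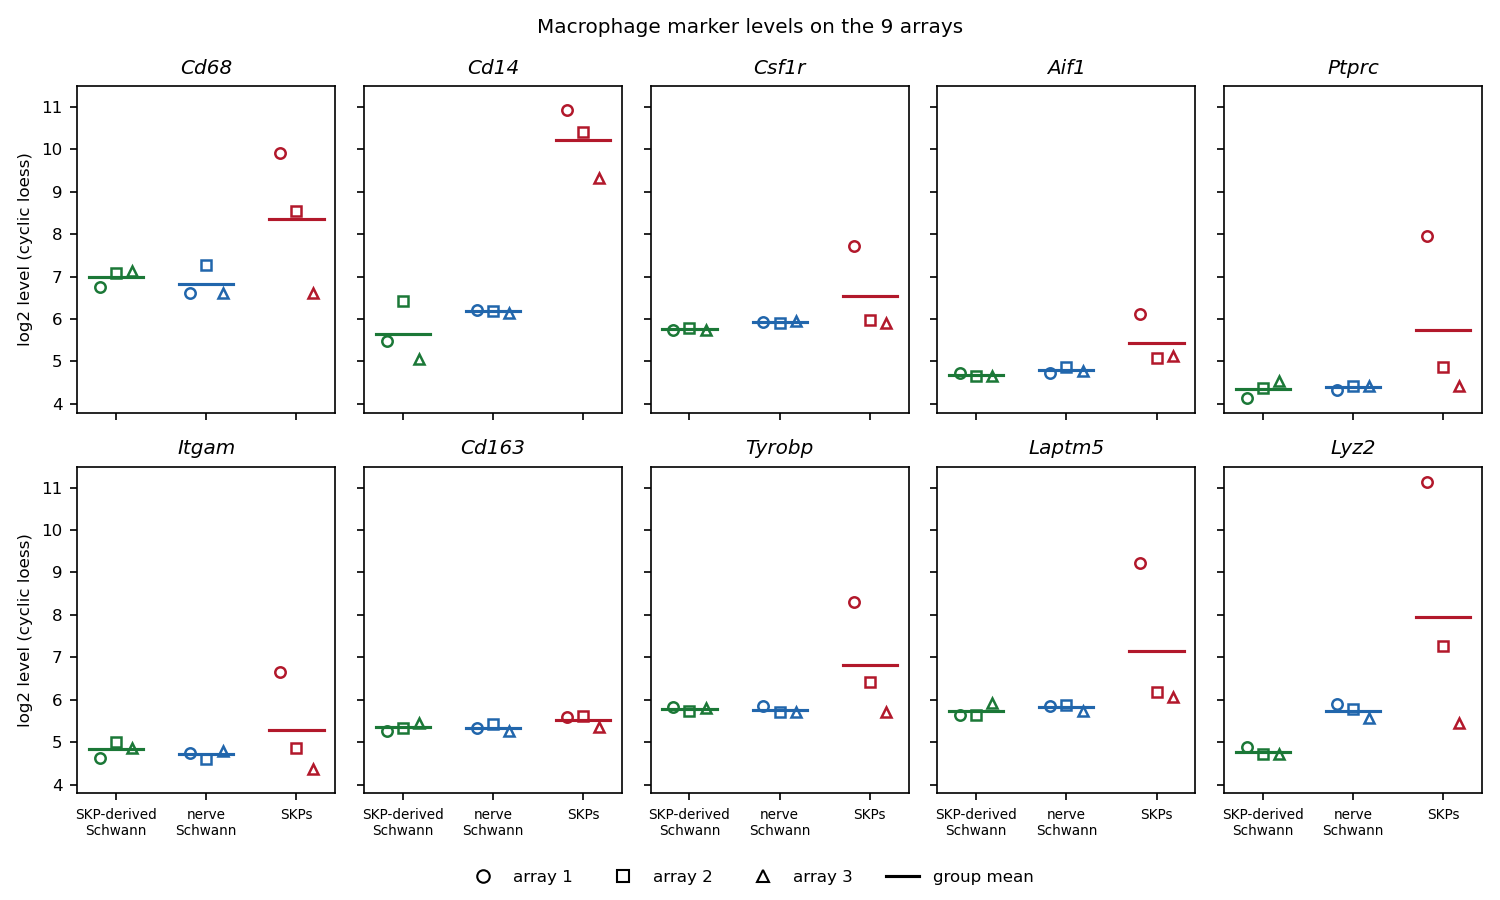
Log2 level after cyclic loess (vertical axis) of the 10 macrophage markers, 1 panel a gene, in SKP-derived Schwann cells, nerve Schwann cells and SKPs, with 1 symbol per array (circle 1, square 2, triangle 3) and a line at the group mean. SKP array 1 lies above all 6 Schwann cell arrays in every panel, by 0.13 for Cd163 and by 5.24 for Lyz2, while all 3 SKP arrays lie above them by at least 2.90 for Cd14.

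Among the lysosomal markers, Lyz2 varied most. Lyz2, the lysozyme of myeloid cells, was deposited at 4.74, 4.61 and 4.46 in SKP-derived Schwann cells, at 6.31, 6.15 and 5.93 in nerve Schwann cells and at 10.84, 7.03 and 5.13 in SKPs. Its SKP arrays thus spanned a wider range after cyclic loess (5.69 log2 units) than those of any other of the 14506 genes, where the median range was 0.42. Cd68, a glycoprotein of macrophage lysosomes, was at 6.60, 6.88 and 7.01 in SKP-derived Schwann cells, 6.83, 7.52 and 6.87 in nerve Schwann cells and 9.76, 8.39 and 6.47 in SKPs. SKP array 3 held the lowest deposited Cd68 value of all 9 arrays, so the groups overlapped. Laptm5, a lysosomal membrane protein of haematopoietic cells, was at 5.51, 5.52 and 5.67 in SKP-derived Schwann cells, 6.25, 6.25 and 6.10 in nerve Schwann cells and 8.93, 5.94 and 5.77 in SKPs. For Laptm5 SKP arrays 2 and 3 lay close together, 0.11 apart after cyclic loess, and array 1 was 3.04 above the higher of them.

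The surface receptors of the lineage had the same array at the top. Ptprc, which encodes CD45, a tyrosine phosphatase on nearly all leukocytes, was at 3.93, 4.25 and 4.20 in SKP-derived Schwann cells, 4.79, 4.84 and 4.84 in nerve Schwann cells and 7.66, 4.64 and 4.13 in SKPs. Csf1r, the receptor for the macrophage growth factors, was at 5.59, 5.67 and 5.46 in SKP-derived Schwann cells, 6.34, 6.28 and 6.34 in nerve Schwann cells and 7.42, 5.73 and 5.57 in SKPs. Itgam, the alpha chain of the complement receptor CD11b/CD18, was at 4.42, 4.89 and 4.51 in SKP-derived Schwann cells, 5.21, 5.03 and 5.22 in nerve Schwann cells and 6.36, 4.63 and 4.05 in SKPs. For these 3 receptor genes SKP array 1 was 1.74 to 3.08 log2 units above SKP array 2 after cyclic loess, while SKP arrays 2 and 3 differed by 0.08 to 0.51. Tyrobp, the ITAM adaptor (DAP12) that carries signals from several myeloid receptors, was at 5.68, 5.62 and 5.54 in SKP-derived Schwann cells, 6.26, 6.09 and 6.09 in nerve Schwann cells and 8.0, 6.17 and 5.40 in SKPs. Aif1, which encodes the calcium-binding protein Iba1 of macrophages and microglia, was at 4.52, 4.53 and 4.30 in SKP-derived Schwann cells, 5.20, 5.30 and 5.20 in nerve Schwann cells and 5.81, 4.84 and 4.82 in SKPs. For Aif1, SKP array 1 was 1.04 above array 2 and 0.98 above array 3 after cyclic loess, smaller gaps than for the receptors above.

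The remaining pair behaved differently. Cd163, the haemoglobin scavenger receptor of resident macrophages, was at 5.08, 5.22 and 5.13 in SKP-derived Schwann cells, 5.82, 5.86 and 5.69 in nerve Schwann cells and 5.26, 5.36 and 5.02 in SKPs. It did not share the high value on SKP array 1: after cyclic loess its 9 values lay within 0.36 log2 units. Cd14, the co-receptor that hands lipopolysaccharide to Tlr4, was at 5.34, 6.22 and 4.94 in SKP-derived Schwann cells, 6.42, 6.44 and 6.41 in nerve Schwann cells and 10.77, 10.25 and 9.18 in SKPs. All 3 SKP arrays were thus high for Cd14, including array 3, on which the leukocyte gene Ptprc lay within the range of the Schwann cell arrays after cyclic loess.

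SKP-derived Schwann cells had lower levels than SKPs for 3 of the 10 members, Cd14, Aif1 and Lyz2, and higher levels for 0, where 22.3% of all genes were called lower and 19.3% higher (41.6% in all, at a limma adjusted p under 0.05). After cyclic loess the same 3 members were lower, beside 23.9% of all genes lower and 18.6% higher (42.5% in all). Cd14 fell by 4.57 on the log2 scale as deposited (5.50 ± 0.65 against 10.07 ± 0.81, SD, n = 3 each, SE 0.41, limma adjusted p = 3.52e-05) and by 4.56 after cyclic loess. Lyz2 fell by 3.06 (4.61 ± 0.14 against 7.67 ± 2.91, SD, n = 3 each, SE 1.10, limma adjusted p = 0.0499) and Aif1 fell by 0.71 (4.45 ± 0.13 against 5.16 ± 0.57, SD, n = 3 each, SE 0.24, limma adjusted p = 0.0425). Both lie close to the threshold, and both calls were lost when any 1 nerve or SKP-derived Schwann cell array was left out (limma adjusted p = 0.0628 to 0.110), that of Lyz2 also without SKP array 2 (0.0749). The Lyz2 call was also lost with a trended and robust variance, and where the features of each gene were averaged. Without SKP array 3, 6 members were called, all lower, with Cd68 (-2.24), Ptprc (-2.02) and Tyrobp (-1.47) added, beside 40.9% of all genes called. Without SKP array 1, when 36.2% of all genes were called as deposited and 38.3% after cyclic loess, Cd14 fell by 4.22 (limma adjusted p = 0.000173) and Lyz2 fell by 1.47 (0.0355), whereas Aif1 differed by -0.38 and was not called as deposited (0.0566), though it fell by 0.43 after cyclic loess (0.0180). For the other 7 members the differences lay between -1.37 (Cd68, SE 0.65, limma adjusted p = 0.121) and -0.07 (Cd163, SE 0.13, limma adjusted p = 0.699) with all arrays, and none passed the test. Their standard errors shrank without SKP array 1, for Ptprc to 0.18 from 0.73, and so did the differences, for Ptprc to -0.26. The median over the 10 members was -1.11 as deposited and -0.34 after cyclic loess without SKP array 1, beside -0.01 and -0.03 over all 14506 genes.

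Nerve Schwann cells had a lower level than SKPs for Cd14 under every scaling tried. Cd14 fell by 3.64 as deposited (6.42 ± 0.01 against 10.07 ± 0.81, SD, n = 3 each, SE 0.41, limma adjusted p = 9.31e-05), by 4.04 after cyclic loess and by 3.69 after cyclic loess without SKP array 1. As deposited, 1 more member was called: Cd163 was 0.58 higher (limma adjusted p = 0.0041), close to the 0.46 by which the median gene was higher, and differed by -0.18 after cyclic loess (0.256). These 2 calls stand beside 64.6% of all genes called as deposited (49.7% higher, 14.9% lower), and the 1 call after cyclic loess beside 48% (22.4% higher, 25.6% lower). After cyclic loess the other 9 members differed by -2.21 (Lyz2, SE 1.12, limma adjusted p = 0.134) to -0.18 (Cd163). Without SKP array 1 they differed by -0.75 to 0.10, with Csf1r at -0.01 (SE 0.11). As deposited, leaving out SKP array 1 gave 5 calls, beside 61.3% of all genes, of which Csf1r, Aif1, Itgam and Cd163 were higher by 0.40 to 0.81. After cyclic loess without that array, 0 of these 4 were called, beside 43.3% of all genes, and Aif1 was closest (-0.32, limma adjusted p = 0.0512). Without SKP array 3, 4 members were called as deposited, Cd163 higher and Cd14, Cd68 (-2.0) and Lyz2 (-2.81) lower, beside 64.3% of all genes called.

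**Figure D2:**
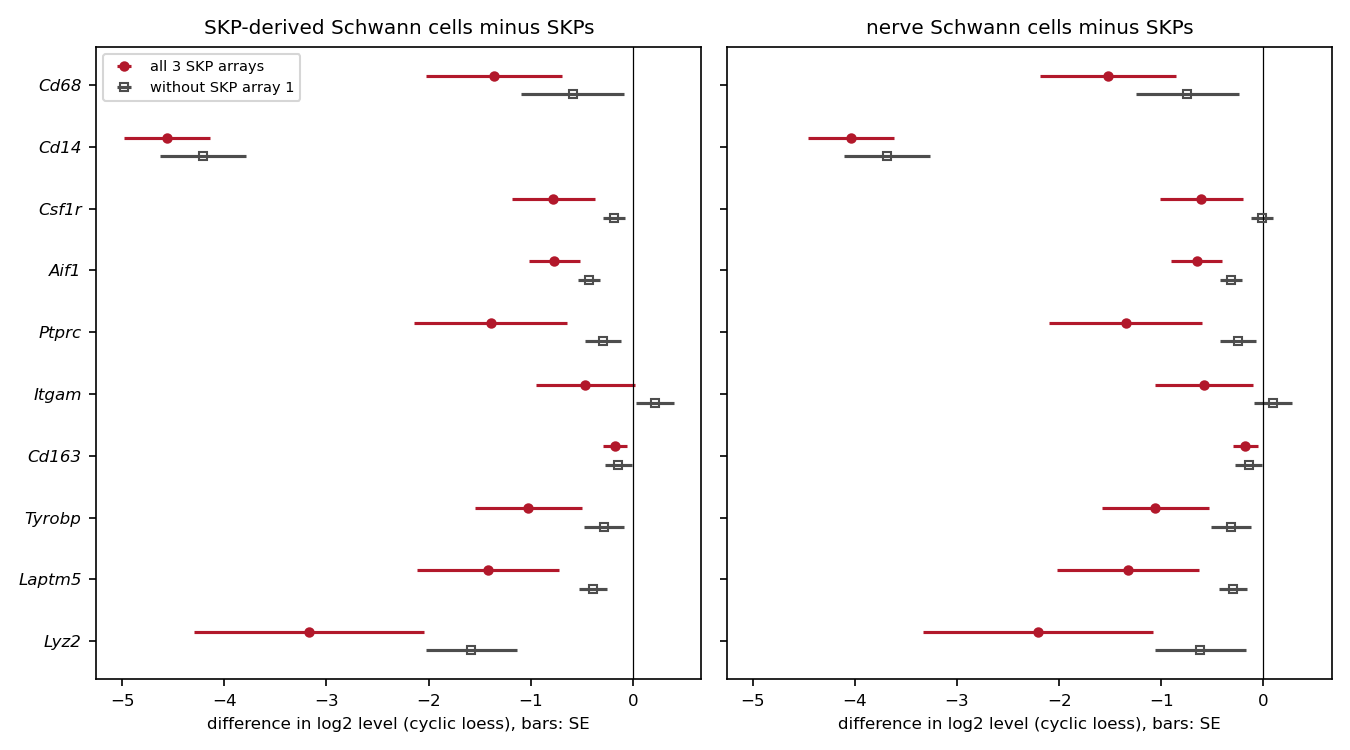
Difference in log2 level after cyclic loess (horizontal axis, bars are standard errors) of each macrophage marker, for SKP-derived Schwann cells minus SKPs on the left and nerve Schwann cells minus SKPs on the right. Filled red circles use all 3 SKP arrays and open squares leave out SKP array 1. Cd14 stays between -4.56 and -3.69 in all 4 estimates, while Ptprc moves to -0.29 from -1.39 on the left and to -0.25 from -1.35 on the right.

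SKP-derived and nerve Schwann cells were not told apart on these markers once the arrays were brought to a shared scale. As deposited, where the median gene was at -0.45, all SKP-derived arrays lay below all nerve arrays for 9 of 10 members. The share of all genes separated in this way was not computed, as deposited or after cyclic loess, so this count has no background beside it. Aif1 (-0.78, limma adjusted p = 0.0292) and Cd163 (-0.65, 0.00601) were called as deposited, beside 42.3% of all genes lower and 1.33% higher (43.7% in all). The call of Aif1 was lost when any 1 nerve or SKP-derived Schwann cell array was left out (limma adjusted p = 0.0506 to 0.0854). Without SKP array 1, 7 members were called lower as deposited, beside 45.5% of all genes called. After cyclic loess limma called 0 of 10 members, and 0 had an unadjusted p under 0.05, beside 1.33% of all genes called (0.731% higher, 0.6% lower). Without SKP array 1 limma called 0 of 10, beside 1.36%, and 1 had an unadjusted p under 0.05. With all arrays the differences lay between -0.96 (Lyz2, SE 1.12) and 0.16 (Cd68, SE 0.67), with a median of -0.07. These standard errors are pooled over all groups and include the spread of the SKP arrays. Without SKP array 1 the SE of Lyz2 was 0.40 and its adjusted p was 0.216. Lyz2 and Csf1r were the 2 members whose groups stayed apart after cyclic loess, with Lyz2 at 4.88, 4.73 and 4.74 in SKP-derived and 5.90, 5.78 and 5.56 in nerve Schwann cells. A p that misses the threshold does not show that the levels are equal.

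Other genes of macrophages and leukocytes were high on the same SKP array. Of 14506 genes, 173 (1.19%) were at least 1 log2 unit higher on SKP array 1 than on both other SKP arrays after cyclic loess. These held 7 of the 10 members, 10 of 19 other macrophage surface receptors, 6 of 9 macrophage complement, lysosome and oxidase genes, and 12 of 20 pan-leukocyte genes. Mrc1, the mannose receptor, was at 9.63 on SKP array 1, 5.81 on array 2 and 4.87 on array 3 as deposited. Cybb, the catalytic subunit of the phagocyte oxidase, was at 10.35, 7.02 and 4.83, and Itgb2, the CD18 chain that pairs with the Itgam product, at 7.95, 5.77 and 5.57. The complement genes C1qa (7.40, 6.04 and 6.17) and C1qb (7.44, 5.74 and 5.99) and the transcription factor gene Spi1 (6.79, 5.52 and 5.22) were highest there too, with smaller gaps. The lists were chosen with earlier results of these data known.

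On SKP array 1, 1 log2 unit or more above both other SKP arrays, stood 0 of 15 lymphocyte markers, 0 of 7 mast cell markers, 0 of 8 neutrophil markers and 0 of 6 dendritic and Langerhans cell markers. The share over all genes was 1.19%, so 0 in lists of this size is close to that share and does not set these lists apart. The mean levels of these markers on SKP arrays 1 to 3 were 5.50, 5.34 and 5.34 for lymphocytes, 4.86, 4.80 and 4.78 for mast cells, 5.13, 5.02 and 5.02 for neutrophils and 6.07, 5.63 and 5.77 for dendritic and Langerhans cells after cyclic loess. MHC class II genes, which present antigen on macrophages and dendritic cells, averaged 6.67, 6.58 and 5.75, and 1 of the 8 measured, RT1-DMb, was at least 1 unit higher on SKP array 1 than on both others (7.91, 6.59 and 5.63); it is named after its values were seen. Their invariant chain Cd74 was at 6.85, 7.32 and 4.81 as deposited, so SKP array 2 was its highest. The dermal mesenchyme markers averaged 12.07, 12.15 and 10.56, so it was array 3 that lay apart on them, as the lowest, and not array 1.

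**Figure D3:**
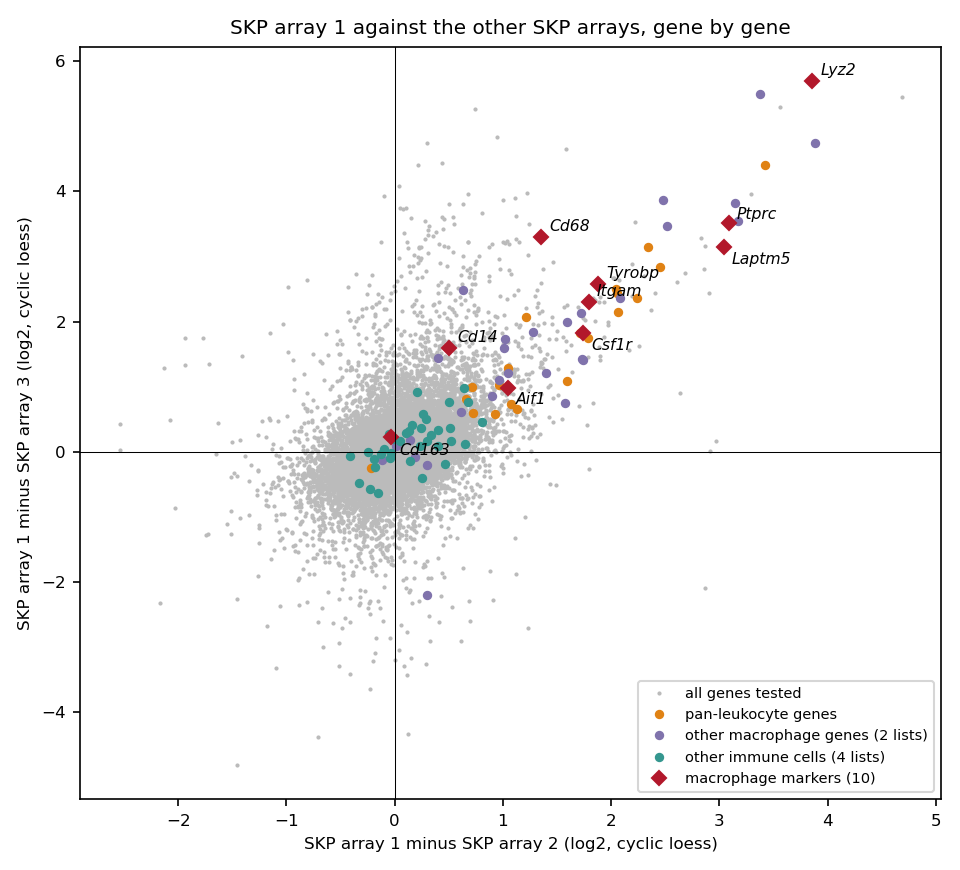
Each point is a gene, placed by its log2 level on SKP array 1 minus SKP array 2 (horizontal axis) and minus SKP array 3 (vertical axis) after cyclic loess. Grey points are all 14506 genes, diamonds the 10 macrophage markers and coloured dots other leukocyte lists. Lyz2 lies at 3.86 and 5.69, Cd163 near the centre, and the lymphocyte, mast cell, neutrophil and dendritic cell markers in the grey cloud.

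**Figure D4:**
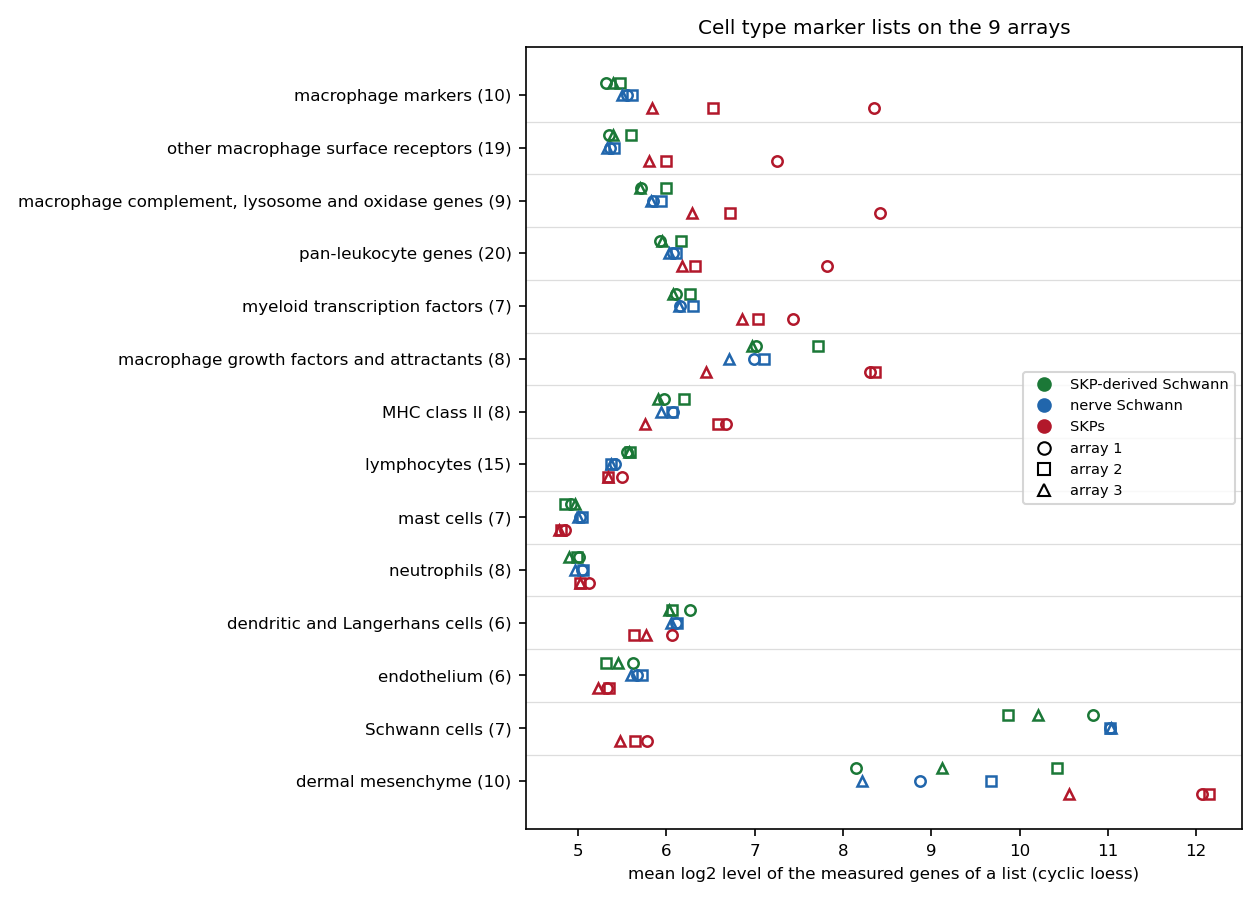
Mean log2 level after cyclic loess (horizontal axis) of the measured genes of each marker list, 1 row a list with the number of genes in brackets, and 1 symbol per array coloured by group. SKP array 1 (red circle) is at 8.35 for the macrophage markers, 7.25 for the other macrophage receptors, 8.42 for the complement, lysosome and oxidase genes and 7.82 for the pan-leukocyte genes, each the highest of the 9 arrays.

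Tests between the groups gave these counts for the other leukocyte genes. In SKP-derived Schwann cells against SKPs, 2 of 19 macrophage receptors rose and 2 fell, 0 of 9 complement, lysosome and oxidase genes rose and 2 fell, and 1 of 20 pan-leukocyte genes rose and 4 fell, as deposited, beside 19.3% of all genes higher and 22.3% lower. The receptors that rose were Cx3cr1, the fractalkine receptor (0.51, limma adjusted p = 0.029), and C3ar1, a complement receptor (0.42, 0.029), and those that fell were Tlr4 and Tlr2 (-1.15, 0.0199), which sense microbial products. The genes with the widest falls were high on all 3 SKP arrays. Arhgdib, a gene of the pan-leukocyte list, fell by 3.53 (5.16, 8.51 and 6.46 in SKP-derived Schwann cells, 10.09, 10.27 and 10.35 in SKPs, limma adjusted p = 0.00286), Tlr4, the lipopolysaccharide receptor, was at 4.42, 7.27 and 5.31 in SKP-derived Schwann cells and at 8.39, 8.09 and 10.57 in SKPs, and fell by 3.35 (limma adjusted p = 0.00785). Slc11a1, a metal transporter of phagosomes, was at 5.16, 5.63 and 5.37 in SKP-derived Schwann cells and at 9.20, 7.65 and 8.44 in SKPs, and fell by 3.04 (0.000107). Neither gene, nor Arhgdib, overlapped between the 2 groups. After cyclic loess without SKP array 1 these 3 genes fell by 3.57, 3.71 and 2.73 and were still called. Cd48, known as a surface protein of leukocytes, rose by 2.75 (2.45e-05), with 12.74 to 13.09 in SKP-derived Schwann cells against 9.80 to 10.70 in SKPs. In nerve Schwann cells it was at 12.71 to 12.94. Among 7 myeloid transcription factors 0 rose and 4 fell: Runx1 (-2.28, limma adjusted p = 0.0001), which acts in blood formation, Nr1h3 (-1.57, 0.000165), the sterol-sensing liver X receptor alpha, Cebpa (-0.97, 0.000355) and Irf5 (-0.67, 0.0334). Runx1 was at 7.78, 8.47 and 7.52 in SKP-derived Schwann cells, against 9.92, 10.39 and 10.32 in SKPs, so it too was high on all 3 SKP arrays and highest on array 2.

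In nerve Schwann cells against SKPs after cyclic loess, 0 of 19 macrophage receptors rose and 7 fell, 0 of 9 complement, lysosome and oxidase genes rose and 3 fell, and 2 of 20 pan-leukocyte genes rose and 2 fell, beside 22.4% of all genes higher and 25.6% lower. As deposited the balance of the receptors was the other way, with 3 higher and 1 lower. Of the complement, lysosome and oxidase genes 0 were higher and 1 lower, and of the pan-leukocyte genes 3 were higher and 1 lower. These counts stand beside 49.7% of all genes higher and 14.9% lower. Tlr4, Slc11a1 and Arhgdib were again among the falls, at -3.58, -3.06 and -4.61. Both comparisons use the same 3 SKP arrays. Mrc1 and Itgb2 were not called in either comparison, with Mrc1 at -1.85 (limma adjusted p = 0.159) in SKP-derived and -1.71 (0.178) in nerve Schwann cells after cyclic loess.

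After cyclic loess, in SKP-derived Schwann cells against SKPs, 3 of 15 lymphocyte markers rose and 1 fell, 0 of 8 neutrophil markers rose and 1 fell, 1 of 6 dendritic and Langerhans cell markers rose and 0 fell, and 0 of 8 MHC class II genes rose and 1 fell, beside 18.6% of all genes higher and 23.9% lower. Of 7 mast cell markers limma called 0, and 0 had an unadjusted p under 0.05. In nerve Schwann cells against SKPs the same lists gave 2 rises and 1 fall for lymphocytes, 0 and 1 for neutrophils, 1 and 0 for dendritic and Langerhans cells and 1 and 1 for MHC class II, beside 22.4% of all genes higher and 25.6% lower. Of the mast cell markers limma called 0 there, and 1 had an unadjusted p under 0.05. As deposited, nerve Schwann cells were higher than SKPs for 11 of 15 lymphocyte, 7 of 8 neutrophil, 6 of 6 dendritic and Langerhans cell, 7 of 7 mast cell and 3 of 8 MHC class II genes and lower for 0, beside 49.7% of all genes higher, so these calls depend on the scaling.

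Of 8 growth factors and attractants of macrophages, 1 rose and 1 fell in SKP-derived Schwann cells against SKPs as deposited. Of all genes 19.3% were higher and 22.3% lower, so these counts do not set the list apart. The genes called are the ligands of Csf1r. Csf1, a ligand of Csf1r that supports macrophage survival, was at 9.12, 8.63 and 8.63 in SKP-derived Schwann cells, 9.52, 9.83 and 9.68 in nerve Schwann cells and 11.52, 11.83 and 10.35 in SKPs. It fell by 2.44 in SKP-derived (SE 0.34, limma adjusted p = 0.000417) and by 1.56 in nerve Schwann cells (0.00288) against SKPs. Il34, the other ligand of the receptor, was at 8.69, 9.01 and 9.23 in SKP-derived Schwann cells, 8.72, 7.92 and 7.27 in nerve Schwann cells and 6.34, 6.15 and 5.35 in SKPs. It rose by 3.03 in SKP-derived (SE 0.37, limma adjusted p = 0.000209) and by 2.02 in nerve Schwann cells (0.00117). Neither gene's groups overlapped between Schwann cells and SKPs, and both calls held after cyclic loess without SKP array 1 (Csf1 -2.36 and -1.64, Il34 3.25 and 1.87). For Csf1 SKP array 1 was not the highest of its group.

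The genes whose levels followed the mean of the 10 members most closely over the 9 arrays were sought among 7523 other genes with a range of at least 1 log2 unit after cyclic loess. The 10 with the highest Pearson correlation were Cybb, Fcer1g, Ifi47, Dok2, Naaa, Bicdl2, Angpt4, Clec7a, Fgr and Olr1, with r of 0.98 to 0.99 as a description. Of these, Cybb, Fcer1g (the Fc receptor gamma chain), Clec7a (the beta-glucan receptor Dectin-1) and Fgr (a Src family kinase of myeloid cells) were in the leukocyte lists. Over the 8 arrays other than SKP array 1, r was lower, at 0.94 for Cybb, 0.95 for Fcer1g and Clec7a and 0.86 for Olr1, and among the members it ranged from -0.002 for Itgam and 0.67 for Csf1r to 0.89 for Lyz2 and 0.93 for Cd14. Naaa, a lysosomal amidase, had the largest gap on SKP array 1 of all genes, at 11.29 against 6.60 and 5.83 on the other SKP arrays after cyclic loess. Among the members, r with their mean over 9 arrays was highest for Lyz2 (0.98) and lowest for Cd163 (0.74). Each member is itself part of that mean, so these r values are not independent of it, and a gene with a wide range weighs more. Cd14 had 0.83.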

How the data were processed

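Expression in 9 cultures was measured on Affymetrix whole-transcript arrays. The deposited log2 values are summaries by RMA, and the submitters' processing notes also name Affymetrix Expression Console. No version, build or grouping of arrays for that step was given in the sources used here. Features were named from the platform annotation (15310 with 1 symbol, 323 with several, 13581 with none). Features with 1 symbol were tested, the brightest standing for its gene (14506 genes), and 15279 features carry a symbol found in the RefSeq table of GRCr8.

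A group means model over all 9 arrays was fitted to the deposited values with limma 3.58.1 (lmFit, eBayes) in R 4.3.3. Every adjusted p is limma's, with Benjamini-Hochberg adjustment over all genes tested, and a call is an adjusted p under 0.05. The procedure was tested on simulated data. Cyclic loess values come from limma's fast method over all 29214 features. Groups are the labelled cell types, and p-values measure the spread between the 3 labelled samples of each, whose number limits the precision. The named genes are all members, the 8 fixed genes, up to 4 called genes of a list with the largest change, and the 10 genes most like the members' mean. The members and lists were chosen with earlier results of these data known. Of 154 list genes 140 were measured. Alternatives were other scalings, feature rules, filters, variances, weights, a block and left-out arrays.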

Additional observations from a re-analysis of the deposited data

How the results depend on the processing

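Counts of called markers depended on the scaling and on single SKP arrays. For SKP-derived Schwann cells against SKPs, 3 were called as deposited and 3 under each of the other 3 scalings, 1 among genes above the median level (where 2 members remained to test) and 1 in a fit of only those 2 groups. Of all genes, 41.6% were called as deposited and 41.8% to 42.5% under the other scalings. The level filter gave 57.7% and the 2-group fit 31.4%. For nerve Schwann cells against SKPs, 2 markers were called as deposited, 1 after cyclic loess (also without SKP array 1), after quantile normalisation, above the median level and with a 2-fold minimum. The share of all genes was 64.6% as deposited and 28.8% to 57.9% in the fits with 1 marker. For SKP-derived against nerve Schwann cells, 2 markers were called as deposited, 0 after median centring, cyclic loess (also without SKP array 1), quantile normalisation, the level filter or a 2-fold minimum, 4 with array weights and 9 in the fit of those 2 groups. Here 43.7% of all genes were called as deposited and 1.33% to 8.27% in the fits with 0 markers. With array weights it was 63.6%, and in the 2-group fit 51%. Leaving out 1 array at a time gave 1 to 6, 2 to 5 and 1 to 7 marker calls in these 3 comparisons. Beside them, 33.5% to 40.9%, 55.3% to 67.4% and 25.9% to 50.1% of all genes were called. The highest marker count came without SKP array 3 in the first comparison (6) and without SKP array 1 in the others (5 and 7), and the lowest in the first (1) came without any 1 of the nerve or SKP-derived Schwann cell arrays. The samples share only a number (deviations of same-numbered samples from their group means correlated at -0.12 to 0.29), and the replicate block left the marker counts at 3, 2 and 2 (40.7%, 64.1% and 42.5% of all genes). The call of all genes between SKP-derived and nerve Schwann cells was 6333 as deposited, 716 after median centring, 193 after cyclic loess and 240 after quantile normalisation, and with the level filter 600, with a 2-fold minimum 806 and in the fits that left out a nerve array 3755 to 4005.

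Median centring gave 14.5% of all genes higher and 27.4% lower in SKP-derived Schwann cells than in SKPs, and for nerve Schwann cells 17.1% and 31.6%. The sign of several small differences turned. For nerve Schwann cells against SKPs, Csf1r was 0.08 as deposited and -0.52, -0.61, -0.56 and -0.0117 after median centring, cyclic loess, quantile normalisation and cyclic loess without SKP array 1. In the same order Aif1 was 0.07, then -0.53, -0.65, -0.65 and -0.32, Cd163 0.58, then -0.0227, -0.18, -0.16 and -0.14, and Itgam 0.14, then -0.46, -0.58 and -0.54 under the first 3. Between SKP-derived and nerve Schwann cells, Cd68 was -0.24 as deposited and 0.23, 0.16, 0.19 and 0.16 in that order. Under cyclic loess, quantile normalisation and cyclic loess without SKP array 1, Itgam (-0.55) was 0.12, 0.0992 and 0.12 and Tyrobp (-0.53) 0.0349, 0.0458 and 0.0349, and in both loess fits Cd163 (-0.65) was 0.0032. Itgam in SKP-derived cells against SKPs was 0.22 after cyclic loess without SKP array 1. Leaving out 1 array at a time turned the sign only with SKP arrays: for SKP-derived cells against SKPs Itgam ranged over -0.89 to 0.26 and Cd163 over -0.17 to 0.0043, and for nerve cells against SKPs Csf1r over -0.25 to 0.67, Aif1 over -0.0945 to 0.40, Ptprc over -1.32 to 0.44, Itgam over -0.34 to 0.81, Tyrobp over -0.94 to 0.36, Laptm5 over -1.23 to 0.35 and Lyz2 over -2.81 to 0.0512. The cause was not tested. Of 606 recomputed member values, 505 kept direction and side of the threshold, 40 turned sign, 27 gained a call and 34 lost it. Not all settings could change a difference. Each member has 1 feature, so the feature rules left its difference as it was, and the 2-fold minimum uses the main fit. The array number limits the precision, and signal over background was not measured.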

Other observations

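Among the genes at least 1 log2 unit higher on SKP array 1 than on both other SKP arrays, 35 of 173 were in the members or the 3 lists of macrophage and leukocyte genes. The largest gaps outside all lists, named after their values were seen, belonged to Naaa (4.69 above the higher of the other arrays after cyclic loess), Txnip (3.56) and the chemokine gene Ccl6 (3.29). Txnip, a thioredoxin-binding protein, was at 10.98, 7.43 and 5.68 on SKP arrays 1 to 3. On SKP array 3, 247 genes stood at least 1 unit above both other SKP arrays, and on array 2 there were 32.

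In SKP-derived Schwann cells, 1 gene of the lymphocyte list stood out by the size of its change. As deposited, 3 of the 15 measured rose against SKPs and 2 fell, beside 19.3% of all genes higher and 22.3% lower. Cd3g, a chain of the T cell receptor complex, was at 6.78, 7.96 and 6.79 in SKP-derived Schwann cells, 5.35, 5.15 and 4.77 in nerve Schwann cells and 4.05, 4.07 and 3.88 in SKPs as deposited. It rose by 3.18 against SKPs (limma adjusted p = 5.05e-05) and was 2.74 higher than in nerve Schwann cells after cyclic loess (0.00971). Its partners Cd3e and Cd3d did not share the size of this change: Cd3e rose by 0.56 and Cd3d fell by 0.48 in SKP-derived Schwann cells against SKPs.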
